A study of Mus musculus with 4 samples.

Results

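Leptomeningeal fibroblast spots is the name used here for the capture spots of 4 brain sections in which RNA of 8 fibroblast genes stood above its share of the section. For each spot with at least 500 unique molecular identifiers (UMIs, the tags that count captured RNA molecules), the summed UMIs of 8 fibroblast genes, Col1a1, Col1a2, Col3a1, Dcn, Lum, Igf2, Slc6a13 and Ogn, were set against the number expected from the depth of the spot and the pooled level of these genes in that section. The score was the excess over this number in units of its square root, and a spot was a member when it scored at least 3 with at least 3 of the 8 genes detected. This rule took 230 spots of the 7620 used: 55 of 1537 in section 1, 104 of 2358 in section 2, 48 of 2294 in section 3 and 23 of 1431 in section 4. All remaining spots of the same sections are called other spots.

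The samples were 10-µm fresh frozen sections of mouse brain on Visium slides, arrays of barcoded spots that capture polyadenylated RNA from the tissue above them. All 4 carried the genotype Nf1+/-, heterozygous for the gene of the Ras regulator neurofibromin, with no treatment named, and no section of another genotype was analysed here. The labels give neither the age of the animals nor whether the 4 sections came from 4 mice, so p-values measure the spread between these sections, which may be technical. Total UMIs per section ran from 19261710 to 37002379.

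The leptomeninges are the inner coverings of the brain. Their fibroblasts build the pial and arachnoid layers, lay down collagen and the basement membrane against which astrocyte endfeet form the glia limitans, carry solute transporters, and secrete prostaglandin D synthase, retinoic acid and the chemokine Cxcl12. Blood vessels and resident macrophages run through the same layer, and fibroblasts also fill the stroma of the choroid plexus. A spot covers several cells, so a difference in fewer cells of a type and a difference in RNA per cell cannot be told apart.

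The 8 genes that chose the spots are given as a description only. Levels are given in CPM, the UMIs of a gene per 1000000 UMIs summed over the spots of a group. Dcn, a small collagen-binding proteoglycan, was at 142, 141, 211 and 126 CPM in the fibroblast spots of sections 1 to 4 and at 6.98, 6.19, 5.65 and 6.28 in other spots. Igf2, a growth factor of meninges and choroid plexus, was at 333, 214, 159.6 and 251 CPM against 24.4, 8.47, 7.04 and 17.6. Col1a2, a chain of type I collagen, was at 74.2, 117, 101 and 67.6 CPM against 4.9, 5.99, 3.8 and 4.27. Groups do not overlap for these genes because the rule used them. Fibroblast spots held 3.56%, 3.93%, 1.94% and 1.61% of the UMIs of their sections but 38.2%, 48.3%, 35.6% and 21.8% of the UMIs of the 8 genes.

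Membership was graded rather than all or none. Of the 230 spots, 83 held 3 of the 8 genes, 73 held 4, 32 held 5, 28 held 6, 13 held 7 and 1 held all 8. The median score was 7.18, 8.07, 9.25 and 7.73 by section, with highest scores of 39.2, 50.3, 37.6 and 40.9. Just inside the threshold, 8, 9, 4 and 1 members scored from 3 to under 4, at 311, 246, 222 and 161 CPM for the 8 genes together. Just outside it, 36, 39, 44 and 27 spots scored from 2 to under 3, at 266, 226, 215 and 202 CPM. A further 24, 18, 71 and 68 spots reached the score with under 3 genes detected, at 548, 431, 371 and 638 CPM. In every section these stood above the members scoring from 3 to under 4, yet they count as other spots.

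Promoter sequence is shown for 2 of the genes that define the spots and for 2 genes outside the rule that were much higher in them, a transporter and an enzyme of retinoic acid synthesis. Each line holds the 250 bases before the RefSeq transcription start on assembly GRCm38.p6, written 5′ to 3′ on the strand of the gene. Capitals mark matches on either strand to 4 motifs, the CCAAT box (CCAAT), the TATA box (TATAAA), the GC box (GGGCGG) and the forkhead core (TGTTTAC). Col1a2 lies on the plus strand with this window at chr6:4505368-4505617, Col3a1 on the plus strand at chr1:45311288-45311537, Slc22a6 on the plus strand at chr19:8617746-8617995, and Aldh1a2 on the plus strand at chr9:71215539-71215788.
Col1a2: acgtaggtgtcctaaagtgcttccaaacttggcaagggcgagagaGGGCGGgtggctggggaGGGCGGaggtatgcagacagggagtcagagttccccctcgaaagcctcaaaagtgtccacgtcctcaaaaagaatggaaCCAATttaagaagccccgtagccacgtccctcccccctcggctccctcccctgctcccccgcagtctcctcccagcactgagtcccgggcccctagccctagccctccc
Col3a1: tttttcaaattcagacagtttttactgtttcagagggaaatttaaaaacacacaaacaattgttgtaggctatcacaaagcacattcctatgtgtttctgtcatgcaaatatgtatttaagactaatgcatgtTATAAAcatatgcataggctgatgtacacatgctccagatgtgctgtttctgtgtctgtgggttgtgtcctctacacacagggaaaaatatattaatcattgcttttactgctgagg
Slc22a6: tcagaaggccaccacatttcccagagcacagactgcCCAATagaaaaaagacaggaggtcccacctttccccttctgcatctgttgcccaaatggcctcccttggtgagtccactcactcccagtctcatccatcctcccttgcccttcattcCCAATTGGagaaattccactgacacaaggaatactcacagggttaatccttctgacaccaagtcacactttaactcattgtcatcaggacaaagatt
Aldh1a2: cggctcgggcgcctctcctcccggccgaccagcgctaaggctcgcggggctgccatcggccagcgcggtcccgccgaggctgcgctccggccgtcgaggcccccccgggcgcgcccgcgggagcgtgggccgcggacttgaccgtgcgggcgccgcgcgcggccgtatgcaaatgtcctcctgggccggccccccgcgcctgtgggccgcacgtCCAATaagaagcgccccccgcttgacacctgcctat
The Col1a2 window held 1 CCAAT and 2 GC boxes, Col3a1 held 1 TATAAA, Slc22a6 held 3 CCAAT matches, of which 1 on the opposite strand overlaps another, and Aldh1a2 held 1 CCAAT. The windows of Fmod and Ptgds were searched as well and held none of the 4 motifs. Among 32851 RefSeq promoter windows of this length, 33.8% held CCAAT, 12.4% TATAAA, 32.7% GGGCGG and 3.17% TGTTTAC, so CCAAT and GGGCGG are common in such windows. Entries were found for 5 of the 8 score genes (not for Col1a1, Dcn or Lum).

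Gene levels were then compared between fibroblast spots and other spots, with UMIs summed per section and group and the section kept as a block. Of 14245 genes tested outside the 8 score genes, 1451 were called higher (10.2%) and 900 lower (6.32%) by edgeR's quasi-likelihood test at a Benjamini-Hochberg adjusted p of 0.05, and 17.6% of all genes did not overlap between the groups. Among called genes rises were the larger changes: 1021 were over 2-fold higher, 398 over 4-fold and 149 over 8-fold, whereas 34 were over 2-fold lower. Fibroblast sums held 310697 to 1455248 UMIs against 18950406 to 35546697 in other spots, so falls of sparse genes were harder to call than rises. The filter on low counts can also pass a sparse gene through the group where it is high, here and in the list counts below. The median log2 fold change over all genes was -0.02. Depth overlapped between the groups, with median UMIs per spot of 15358, 13369, 8231 and 11450 in fibroblast spots against 14921, 15383, 8882.5 and 12238 in other spots (mean log2 difference -0.09 ± 0.10, SD, n = 4 sections; exact two-sided sign-flip p = 0.25, where the smallest possible is 0.125).

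**Figure D1:**
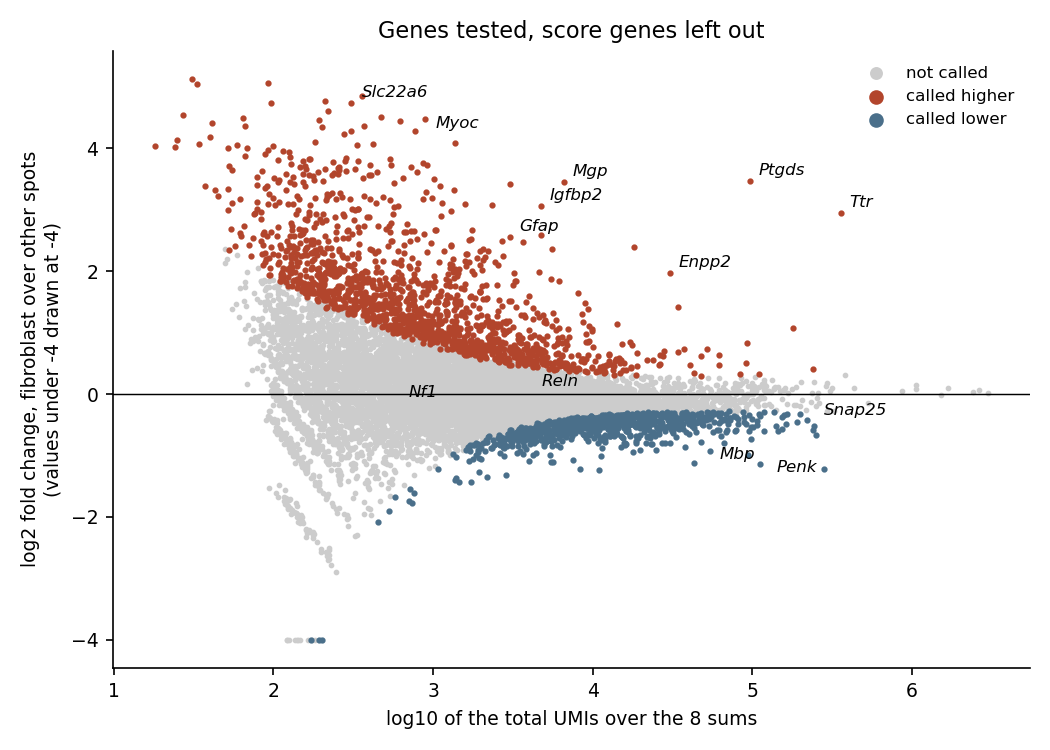
Each point is a gene, at its total UMIs over the 8 sums (horizontal, log10) and its log2 fold change in fibroblast over other spots (vertical), with called genes coloured. Called rises reach higher (Slc22a6 at 4.74) than the called falls of abundant genes reach down (Penk at -1.14), and points drawn at -4 lie below that value.

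Other spot types overlapped with these spots unevenly between sections. Spots with at least 3 of 10 choroid plexus epithelial genes made up 38.2% of fibroblast spots in section 1 and 26.1% in section 4, against 11.3% and 4.97% of the other spots there. In sections 2 and 3 no fibroblast spot was of this kind. In section 1 the 21 such spots were at 4477 CPM for Ptgds and 15.1 for Slc22a6, against 17091 and 61.7 in its remaining fibroblast spots. The 6 of section 4 had no UMI of Slc6a13, Slc22a6 or Aldh1a2. Their Ptgds was at 1283 CPM against 4704 in the remaining fibroblast spots of that section, and their Igf2 at 867 against 117. The leptomeningeal name is less sure for these spots. Spots that met the same score rule for 8 endothelial genes made up 29.1%, 31.7%, 31.3% and 21.7% of fibroblast spots, against 3.51% to 4.97% of other spots. Without choroid plexus-marker spots 1961 genes were called, 1714 of them among the 2351 of the full comparison, and without endothelial-marker spots 1486 were called, 1427 of them shared.

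Of 20 pia and arachnoid genes listed, 17 were tested. Of these, 14 were higher and none lower, with a median log2 fold change of 3.47. The same count and a median of 3.63 were found without choroid plexus-marker spots. Slc22a6, an organic anion transporter, was at 39.5, 55, 42.3 and 32.2 CPM in fibroblast spots against 1.41, 2.03, 1.62 and 1.48 in other spots. Every fibroblast value lay above every other value, and the log2 fold change was 4.74 ± 0.30 (SE; adjusted p = 6.65e-13). Ptgds, which encodes lipocalin-type prostaglandin D synthase, was at 11076, 9321, 7556 and 4094 CPM against 886, 665, 687 and 583. This 11.1-fold difference (log2 3.47 ± 0.14, adjusted p = 8.77e-17) was lowest in section 4, where the fibroblast spots were fewest. Igfbp2, a secreted carrier of insulin-like growth factors, was at 488, 254, 214 and 328 CPM against 46.7, 30.8, 29.9 and 50.8 (log2 3.06 ± 0.12, adjusted p = 2.38e-17). In sections 1 and 4 it was at 818 and 1337 CPM in the fibroblast spots with choroid plexus markers. The remaining fibroblast spots there were at 188 and 110 CPM, against 30.7 and 37.6 in other spots without these markers.

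The 3 genes of this group that did not pass were Cldn11 (0.02), Dpp4 (0.88) and Ngfr (1.06), given as log2 fold changes. Cldn11 encodes the tight-junction protein of the arachnoid barrier and is also made by oligodendrocytes. The broader fibroblast genes were higher for 12 of 15 and lower for none, with a median of 1.86. Islr, a secreted leucine-rich repeat protein, was at 47.9, 70.8, 46.9 and 25.7 CPM against 3.4, 3.54, 3.2 and 4.85 (log2 3.82 ± 0.28, adjusted p = 1.62e-11). Pdgfra, the receptor that marks both fibroblasts and oligodendrocyte precursor cells (OPCs), was at 45.5, 55.7, 65.7 and 51.5 CPM against 27.4, 26.9, 23.1 and 34.5. Its rise was 2.04-fold (log2 1.03 ± 0.17, adjusted p = 3.66e-05), and 2 of 8 OPC genes were higher, Pdgfra itself and Cspg4 (log2 0.87), with a list median of 0.31.

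Of 8 dural genes tested, 4 were higher and none lower, with a median of 1.42: Mgp, Fxyd5, Alpl and Postn. Mgp, an inhibitor of calcification in matrix and vessel wall, was at 623, 605, 477 and 393 CPM against 50.2, 52.7, 46.8 and 46.8 (log2 3.45 ± 0.11, adjusted p = 5.68e-19). Foxp2 (log2 -0.49), Ndp (-0.02), Smoc2 (0.42) and Pi16 (1.37) did not pass.

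**Figure D2:**
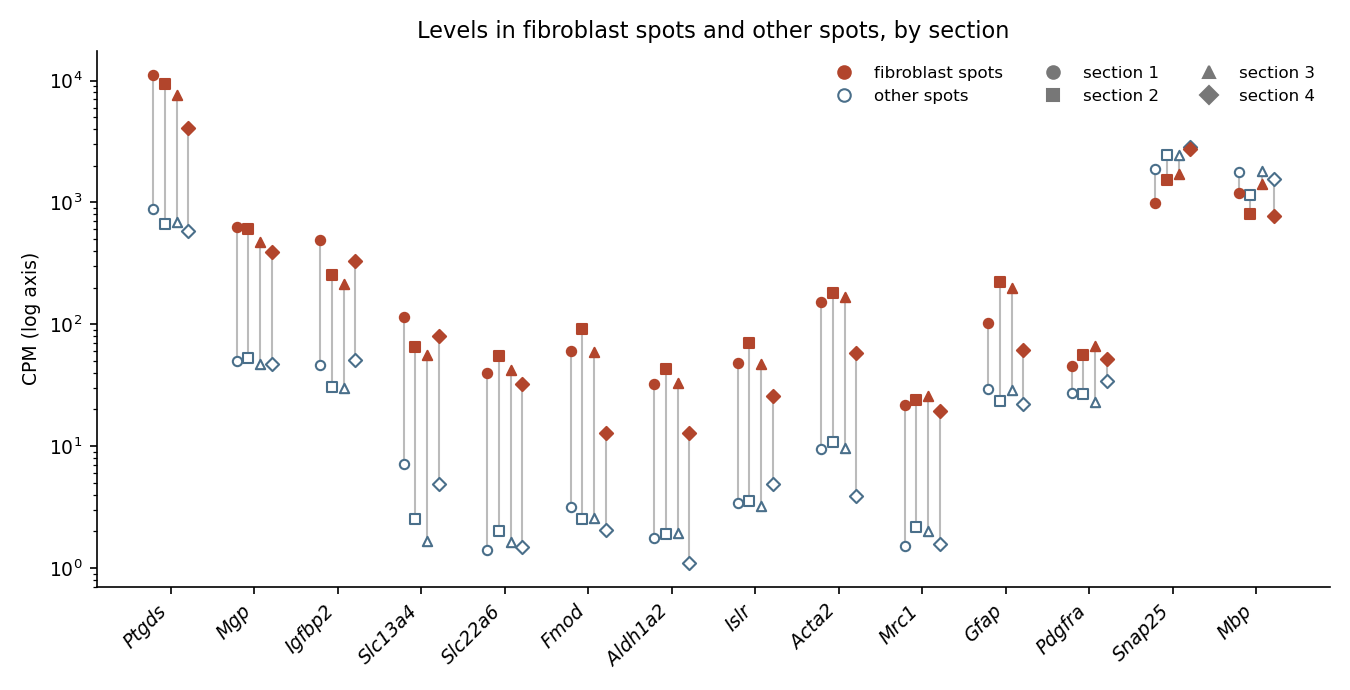
CPM of 14 genes (log axis) in fibroblast spots (filled) and other spots (open) of each of the 4 sections, joined by a line. Ptgds in fibroblast spots runs from 4094 to 11076 against 583 to 886 in other spots, whereas Snap25 and Mbp lie lower in fibroblast spots in all 4 sections.

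Extracellular matrix genes outside the score were higher as well. Among basement membrane genes 16 of 17 were higher and none lower, with a median of 2.01. Lama1, the laminin alpha chain of the pial basement membrane, had a log2 fold change of 3.60, the nidogen Nid1, which links laminin to type IV collagen, 2.93, and the type IV collagen chain Col4a1 1.37. Agrn (log2 0.22) was the member that did not pass. Col4a1 was at 41.9, 28.9, 35.2 and 16.1 CPM against 12.9, 12.8, 13.2 and 11.3 (± 0.22 SE, adjusted p = 4.15e-05). Lamc3, a laminin gamma chain, was at 17.9, 16.5, 16.4 and 0 CPM against 0.928, 1.27, 1.11 and 1.27, so that the rise (log2 3.66 ± 0.45, adjusted p = 6.32e-07) was seen in sections 1 to 3 and the gene had no UMI among the 23 spots of section 4.

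Small leucine-rich proteoglycans, which bind and space collagen fibrils, were higher for 5 of 6 with a median of 2.54. Fmod, fibromodulin, was at 59.8, 91.4, 58.7 and 12.9 CPM against 3.18, 2.53, 2.59 and 2.06, a 22.7-fold rise (log2 4.50 ± 0.29, adjusted p = 1.26e-12). Its lowest fibroblast value, again in section 4, still lay above all other spots. Podn (log2 1.67) did not pass. Among glycoproteins and elastic fibre genes 17 of 22 were higher (median 2.29), led by Mfap4 (log2 3.69) and Eln (3.56). Mfap4 was sparse in other spots (16, 44, 28 and 18 UMIs) and could pass the filter on low counts only with the help of the fibroblast sums. Vcan (0.03) and Fbn2 (-0.62) were among those that did not pass.

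In the list of fibrillar and associated collagens without the score genes, 7 of 14 were higher, with a median of 1.25. The member with the largest fold, Col8a2, was at 37.1, 2.75, 0 and 45.1 CPM against 3.84, 0.535, 0.556 and 2.64, high in the 2 sections with many choroid plexus-marker spots (log2 3.25 ± 0.43, adjusted p = 1.96e-06). Without choroid plexus-marker spots it was 1.97 (adjusted p = 0.042). Col5a1 (1.29), Col6a1 (0.48), Col6a3 (1.07) and Col11a1 (-0.01) were among the 7 that did not pass.

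Enzymes that process and crosslink collagen were higher for 8 of 16 (median 0.81), with Pcolce, an enhancer of procollagen cleavage, at 105, 66, 46.9 and 54.7 CPM against 9.9, 4.84, 4.45 and 4.22 (log2 3.62 ± 0.20, adjusted p = 3.69e-14). Matrix proteases and their inhibitors were higher for 8 of 16 (median 1.19). Serping1, the inhibitor of the first complement component, was at 33.5, 65.3, 56.3 and 19.3 CPM against 2.47, 2.76, 3.01 and 2.69 (log2 4.07 ± 0.29, adjusted p = 1.52e-11). All 12 complement genes tested were higher, with a median of 1.89.

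**Figure D3:**
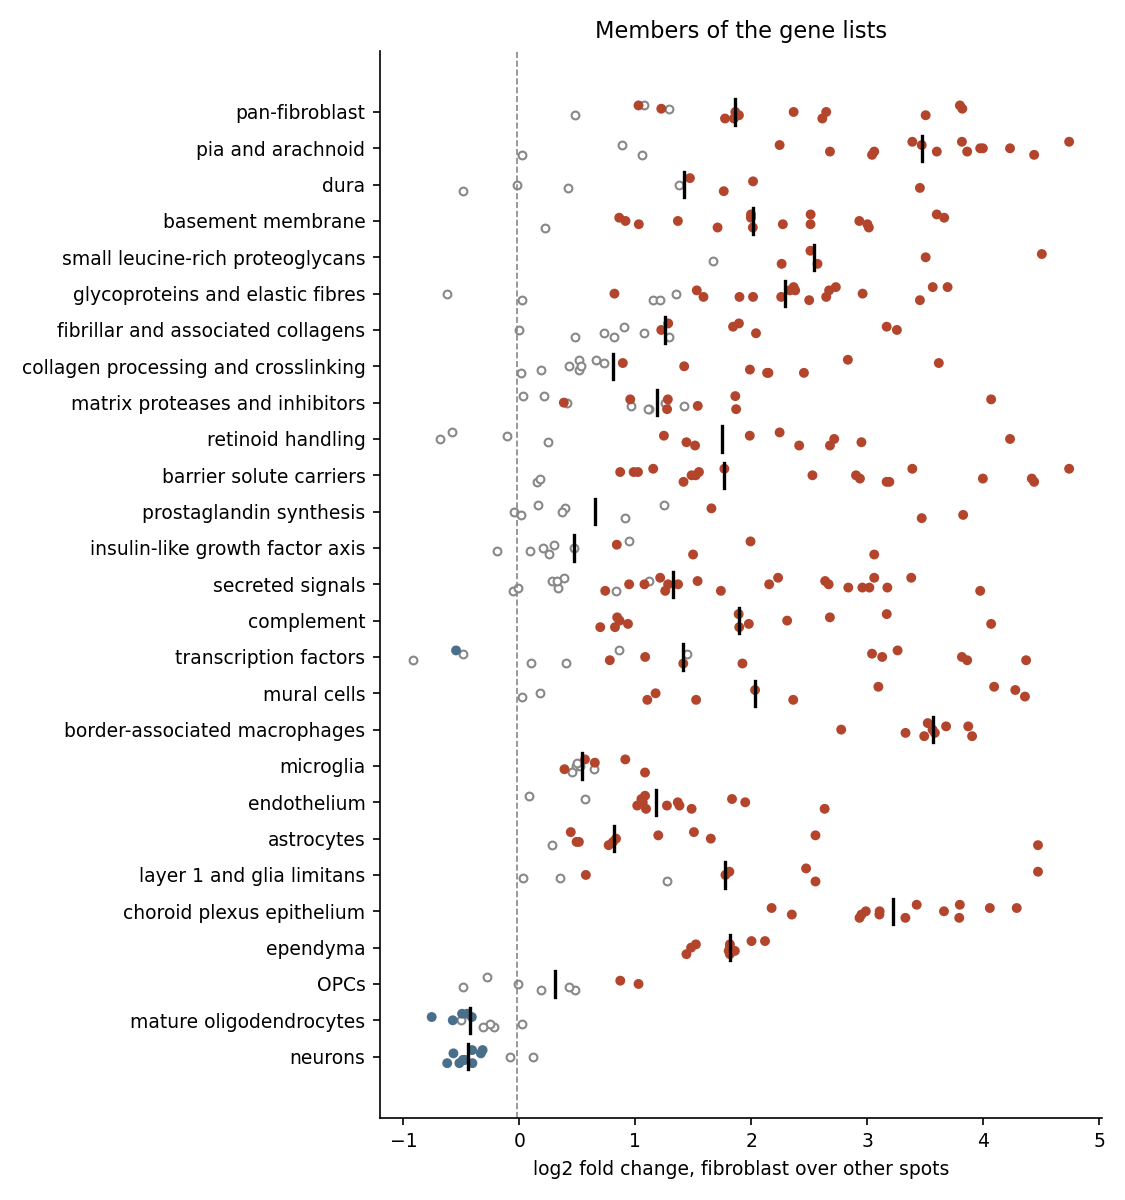
Log2 fold change in fibroblast over other spots for the tested members of the gene lists; filled red and blue points were called higher and lower, open points were not called, black bars are list medians and the dashed line is the median of all genes (-0.02). Pia and arachnoid genes (median 3.47) lie to the right, and neuronal (-0.44) and oligodendrocyte genes (-0.43) to the left.

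Of 21 barrier solute carriers and exporters, 19 were higher and none lower (median 1.77), and Slc4a10 (log2 0.15) and Slc23a2 (0.18) did not pass. Slc13a4, a sulfate transporter, was at 115, 64.6, 56.3 and 80.5 CPM against 7.11, 2.5, 1.67 and 4.85 (log2 4.44 ± 0.22, adjusted p = 4.18e-15). In both groups it was highest in sections 1 and 4, the sections with many choroid plexus-marker spots. Retinoid genes were higher for 10 of 14 with a median of 1.75. Aldh1a2, which makes retinoic acid, was at 32.3, 42.6, 32.9 and 12.9 CPM against 1.77, 1.91, 1.95 and 1.11 (log2 4.23 ± 0.33, adjusted p = 7e-11). Without choroid plexus-marker spots, 9 retinoid genes were higher and 2 lower (median 1.09).

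Secreted signals were higher for 20 of 28 (median 1.32). Cxcl12, a chemokine of meninges and vessels, was at 93.3, 102, 93.9 and 74 CPM against 20.4, 23.2, 19.8 and 22.3 (log2 2.15 ± 0.14, adjusted p = 2.44e-12). The bone morphogenetic proteins Bmp4 (log2 2.96), Bmp5 (3.38), Bmp6 (3.06) and Bmp7 (2.67) all passed, though Bmp4 had no UMI in the fibroblast spots of section 4. Bmp5 was sparse in other spots and could pass the filter on low counts through the fibroblast sums alone. Angptl2, an angiopoietin-like secreted protein, had a log2 fold change of 3.17 ± 0.34 (adjusted p = 6.1e-08), while Il33 (-0.06), Dkk3 (-0.01) and Vegfa (0.38) did not pass.

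In the insulin-like growth factor axis 4 of 11 were higher (median 0.47), namely the binding proteins Igfbp2, Igfbp3 (log2 1.497), Igfbp5 (0.84) and Igfbp7 (1.99), while the receptors Igf1r (0.26) and Igf2r (0.21) did not pass. Of 10 prostaglandin genes 3 were higher, Ptgds, Ptgis (log2 3.83 ± 0.41, adjusted p = 3.85e-08) and Ptges (1.66), with a median of 0.65. Ptgis was sparse in other spots (39, 39, 20 and 16 UMIs) and could pass the filter on low counts only with the help of the fibroblast sums.

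Transcription factors of meningeal and mesenchymal cells were higher for 10 of 17 and lower for 1, Foxp1 (log2 -0.55), with a median of 1.41. Foxc1, required for meningeal development, was at 28.7, 52.2, 37.6 and 19.3 CPM against 4.15, 5.04, 4.45 and 4.06 (log2 3.04 ± 0.27, adjusted p = 1.07e-09). Foxd1 was at 14.4, 14.4, 14.1 and 3.22 CPM against 0.751, 1.18, 0.834 and 0.528 (log2 3.86 ± 0.44, adjusted p = 1.13e-07). Osr1 (log2 3.82), Twist1 (3.26) and Tbx18 (3.13) were higher too, on few UMIs. Osr1 and Tbx18 had no UMI in the fibroblast spots of section 4, and Twist1 had 21 UMIs in all fibroblast spots. Genes as sparse in other spots as Osr1 and Foxd1 could pass the filter on low counts mainly through the fibroblast sums.

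Genes of mural, endothelial and blood-borne cells and of macrophages moved with the fibroblast genes, and their part in the results above was not tested. Mural genes were higher for 9 of 11 (median 2.03), and their summed level was 357 to 1012 CPM in fibroblast spots against 119 to 168 in other spots. Acta2, smooth muscle actin, was at 153, 181, 167 and 57.9 CPM against 9.41, 10.8, 9.64 and 3.9 (log2 4.09 ± 0.14, adjusted p = 5.68e-19). Myh11 (log2 4.36) and Tagln (4.28), also of smooth muscle, were among the 10 largest rises. The pericyte channel genes Kcnj8 (0.02) and Abcc9 (0.18) were the only 2 mural genes tested that did not pass. Rgs5, Vtn and Higd1b were among the 9 that were higher. Without endothelial-marker spots Acta2, Myh11 and Tagln were at 3.37, 3.56 and 3.39.

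Endothelial genes were higher for 12 of 14 (median 1.18), with a summed level of 434.5 to 833 CPM against 285 to 353. Vwf, of larger vessels, had the largest fold (log2 2.63 ± 0.26, adjusted p = 1.11e-08), and Mfsd2a, a transporter of the blood-brain barrier, did not pass (0.08). Without endothelial-marker spots 7 endothelial genes were higher (median 0.84), but 8 of the 14, and 4 of these 7, are the genes that chose the spots left out, so that a fall is built in. All 9 genes of border-associated macrophages tested were higher (median 3.56), at 104 to 195 CPM summed against 13.2 to 18.9. Lyve1, Ms4a7 and Cd209f were sparse in other spots and could pass the filter on low counts through the fibroblast sums alone. The count is therefore a description only. Mrc1, the mannose receptor, was at 21.5, 24.1, 25.8 and 19.3 CPM against 1.5, 2.17, 1.99 and 1.58 (log2 3.68 ± 0.34, adjusted p = 2.35e-09). Microglial genes were higher for 5 of 10 with a smaller median of 0.54, and their summed level overlapped between the groups (296 to 584 against 328 to 351). This count depended on the sections, with 0 of 10 higher when section 2 was left out and 9 of 10 when section 1 was (2 for section 3 and 3 for section 4), and 9 of 10 without choroid plexus-marker spots.

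All 4 haemoglobin genes tested were higher (median 3.43). Igha, the constant region of immunoglobulin A and the largest rise among called genes with at least 100 UMIs (log2 4.77 ± 0.56, adjusted p = 2.08e-07), was at 2.39, 81.8, 4.69 and 3.22 CPM against 0.221, 1.58, 1.07 and 0.106. It rests on section 2, without which it was at 2.94 with an adjusted p of 0.091. Igha, Hba-a1 and Hbb-bt were sparse in other spots and could pass the filter on low counts only with the help of the fibroblast sums. Pmp22, a myelin protein gene of Schwann cells that central glia also express, was higher (log2 0.71 ± 0.16, adjusted p = 0.00213), but not without section 2 (adjusted p = 0.105) or without endothelial-marker spots (0.0961).

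Choroid plexus epithelial genes were higher for all 14 tested (median 3.22), but their levels followed the sections with choroid plexus-marker spots. Ttr, the thyroxine carrier of this epithelium, was at 117668, 31.6, 86.9 and 43238 CPM in fibroblast spots against 8338, 5.99, 72.6 and 3089 in other spots (log2 2.95 ± 0.33, adjusted p = 8.38e-08). Enpp2, autotaxin, was at 5211, 153, 157 and 2842 CPM against 473, 121, 140.0 and 361 (log2 1.96 ± 0.33, adjusted p = 5.56e-05). Sections 1 and 4 stood far above the other two for both genes, in fibroblast spots and in other spots alike. Without choroid plexus-marker spots, Ttr was at 0.59, Enpp2 at 0.29, Ecrg4 at 1.14 (from 3.43) and Kcnj13 at 3.20 (from 4.29) on the log2 scale, and 4 of 10 epithelial genes tested were higher with a median of 0.52. Of these 10 genes 7, Kcnj13 among them, belong to the genes by which the spots were left out, so a lower value there is built in. Enpp2 lost its call by DESeq2 (adjusted p = 0.117), Ttr with at least 5 of 8 markers (adjusted p = 0.186), and both in a robust quasi-likelihood fit (adjusted p = 0.135 for Ttr and 0.294 for Enpp2). Both also lost it in the edgeR fit without the section block (adjusted p = 0.269 for Ttr and 0.0598 for Enpp2).

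Ependymal genes were higher for all 10 tested (median 1.81) and for 2 of 10 without choroid plexus-marker spots (median 0.78). Mia, the member with the largest fold, was at 156, 14.4, 7.04 and 64.4 CPM against 20.1, 6.72, 7.92 and 12.1 (log2 2.12 ± 0.28, adjusted p = 1.8e-06), and at 0.54 without those spots (adjusted p = 0.32). Rarres2, chemerin, was at 136, 54.3, 49.3 and 25.7 CPM against 34.4, 24.6, 22.7 and 18.1 (log2 1.44 ± 0.18, adjusted p = 6.18e-07) and at 1.07 without them. Its call was lost with at least 5 of 8 markers (log2 0.72, adjusted p = 0.0971). It was also lost with spots picked by Col1a1, Col3a1, Lum and Slc6a13 alone (log2 0.59, adjusted p = 0.0807). Of 6 genes listed because the study discusses them, Ttr, Enpp2, Rarres2, Ecrg4, Pdgfra and Nf1, 5 were higher (median 1.70, and 0.82 without choroid plexus-marker spots). The study drew the first 4 from these sections, as higher in focal areas of raised OPC density than outside them. It also reported larger areas of Ecrg4 and Enpp2 immunofluorescence and of Ttr in situ signal in such areas. The comparison here is another one on the same sections, so for those 4 the count is no independent evidence.

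Astrocyte genes were higher for 11 of 12 with a median of 0.82. Their summed level was 1876, 3628, 3570 and 1818 CPM against 1681, 1839, 1774 and 1629 in other spots, so the rise was small in sections 1 and 4 and the ranges overlap. Without choroid plexus-marker spots it was 1978 to 3628 CPM against 1634 to 1840, without overlap. Gfap, the intermediate filament of surface and reactive astrocytes, was at 102, 224, 197 and 61.2 CPM against 29.3, 23.4, 28.9 and 22.1 (log2 2.55 ± 0.19, adjusted p = 2.62e-11). Myoc, found in astrocytes of the glia limitans, was at 31.1, 197, 176 and 35.4 CPM against 3.98, 7.03, 5.28 and 2.11 (log2 4.47 ± 0.24, adjusted p = 1.94e-14). Both were highest in sections 2 and 3, where no fibroblast spot was a choroid plexus-marker spot. Of 9 genes of layer 1 and the glia limitans, 6 were higher (median 1.78). Slc1a2, a glutamate transporter of all grey-matter astrocytes, did not pass (0.28). Reln, of layer 1 Cajal-Retzius cells and interneurons, was at 28.7, 56.3, 39.9 and 32.2 CPM against 46.6, 39.8, 43.6 and 38.1 and did not pass (log2 0.03 ± 0.18, adjusted p = 0.951).

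Neuronal genes were lower for 10 of 12 and higher for none, with a median of -0.44. Their summed level was 2729, 4686, 4713 and 6054 CPM in fibroblast spots against 4900, 6175, 5894 and 6638 in other spots. Without choroid plexus-marker spots it was 3780 against 4937 CPM in section 1. In section 4 it was then 7061 against 6752 CPM, so the lower summed level there was not kept. Snap25, of the synaptic release machinery, was at 994, 1528, 1718 and 2742 CPM against 1889, 2454, 2457 and 2867 (log2 -0.52 ± 0.11, adjusted p = 0.00117). The value was lower in all 4 sections, though the ranges overlap between sections. Camk2a (0.12) and Slc17a6 (-0.08) did not pass, and Nefm, a neurofilament, had the largest called change of the list (-0.62 ± 0.14, adjusted p = 0.00179). Mature oligodendrocyte genes were lower for 5 of 10 (median -0.43). Mbp, myelin basic protein, was at 1198, 804, 1413 and 772 CPM against 1788, 1157, 1826 and 1548 (log2 -0.58 ± 0.11, adjusted p = 0.000322), and Opalin was at -0.76 ± 0.18 (adjusted p = 0.00363). With spots picked by Col1a2, Dcn, Igf2 and Ogn alone, Mbp was at -0.047 (adjusted p = 0.807) and Opalin at -0.17 (adjusted p = 0.615). Without the section block, Snap25 and Mbp lost their calls (adjusted p = 0.212 and 0.102).

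Nf1 itself was sparse, at 4.79, 4.81, 7.04 and 6.44 CPM in fibroblast spots (16 UMIs in all) against 7.95, 5.09, 6.07 and 6.12 in other spots. A difference was not detectable at this depth (log2 -0.14 ± 0.41, adjusted p = 0.876).

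The remaining genes chosen by size of change were Itih2, a hyaluronan-binding protein of matrix (log2 4.45 ± 0.39, adjusted p = 9.02e-10), and Prg4, lubricin (4.35 ± 0.36, adjusted p = 2.41e-10). To be chosen as a rise, a gene had to be above other spots in all 4 sections. The largest falls among called genes with at least 100 UMIs were sparse in fibroblast spots. Gm20754, Gm44644 and Gm20939 had 0 UMIs in the fibroblast spots of every section and 202, 173 and 192 UMIs in other spots, where 6.20, 5.31 and 5.89 UMIs would have matched the level of other spots. The level of other spots was 2.07-fold, 1.77-fold and 1.96-fold that of a floor of 3 UMIs over all fibroblast spots (adjusted p = 0.0354, 0.0476 and 0.0454 in the edgeR test). These genes were picked as the largest falls among 14245 tested, so the floor sets no lower bound on their change. Gm17484 (3 UMIs in fibroblast spots), Zbed5 (4) and 2900009J06Rik (6) followed with log2 fold changes of -2.08 ± 0.71, -1.90 ± 0.65 and -1.77 ± 0.51 (adjusted p = 0.0418, 0.0447 and 0.0142). All 6 of these calls were lost without section 2. Those of Gm20754, Gm44644 and Gm20939 were lost whichever section was left out (adjusted p from 0.0602 to 0.207). They were also lost at a score minimum of 5 and with at least 5 of 8 markers. Gm17484 also lost its call without section 1 or 3, and Zbed5 without section 1 or 4.

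Fibroblast spots also varied among themselves. Spots with 5 to 8 score genes detected (74 spots) were compared, as a description, with those with 3 detected (83 spots). Median UMIs per spot were 10967.5, 14190, 8293 and 10585.5 in the former and 16066, 11023, 8579 and 8031.5 in the latter. The means were close, at 11009 ± 2427 against 10925 ± 3666 (SD, n = 4 sections), but depth was lower in the former in sections 1 and 3 and higher in sections 2 and 4. Ptgds was at 43027, 14393, 11680 and 18421 CPM in the former and at 2693, 4834, 5048 and 3532 in the latter. Slc22a6 was at 173, 78, 99.6 and 283 CPM against 3.87, 35.5, 24.7 and 14.6, and Aldh1a2 at 128, 61.5, 81.5 and 94.5 against 3.87, 14.8, 0 and 14.6.

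The 74 spots were unevenly spread, at 16, 45, 11 and 2 by section, and the 2 spots of section 4 held 21171 UMIs in all, so its values there rest on few UMIs. Over sections 1 to 3 alone, the mean level was higher by 5.49 times for Ptgds, 5.47 times for Slc22a6 and 14.5 times for Aldh1a2, against 5.43, 8.06 and 10.99 times with section 4. Mgp (4.26 times), Serping1 (3.89), Acta2 (3.61), Mrc1 (3.36), Gfap (3.34), Fmod (5.02) and Islr (3.54) were likewise higher in each of the 3 sections. For Ptgds, Slc22a6 and Aldh1a2 section 1 had the highest level of these 3 sections at 5 to 8 genes, so it weighs most in their ratios. The part of choroid plexus-marker spots in this was not tested.

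Cldn5, of endothelial tight junctions, was higher in 2 of the 3 sections (1.39 times). Snap25 (0.815 times) and Mbp (0.887 times) were lower in all 3, and with section 4 their ratios were 1.02 and 0.939. Ttr was higher in 1 of the 3 sections, at 49.5 CPM against 23.6 in section 2, while section 1 was at 29577 against 92480 CPM.

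**Figure D4:**
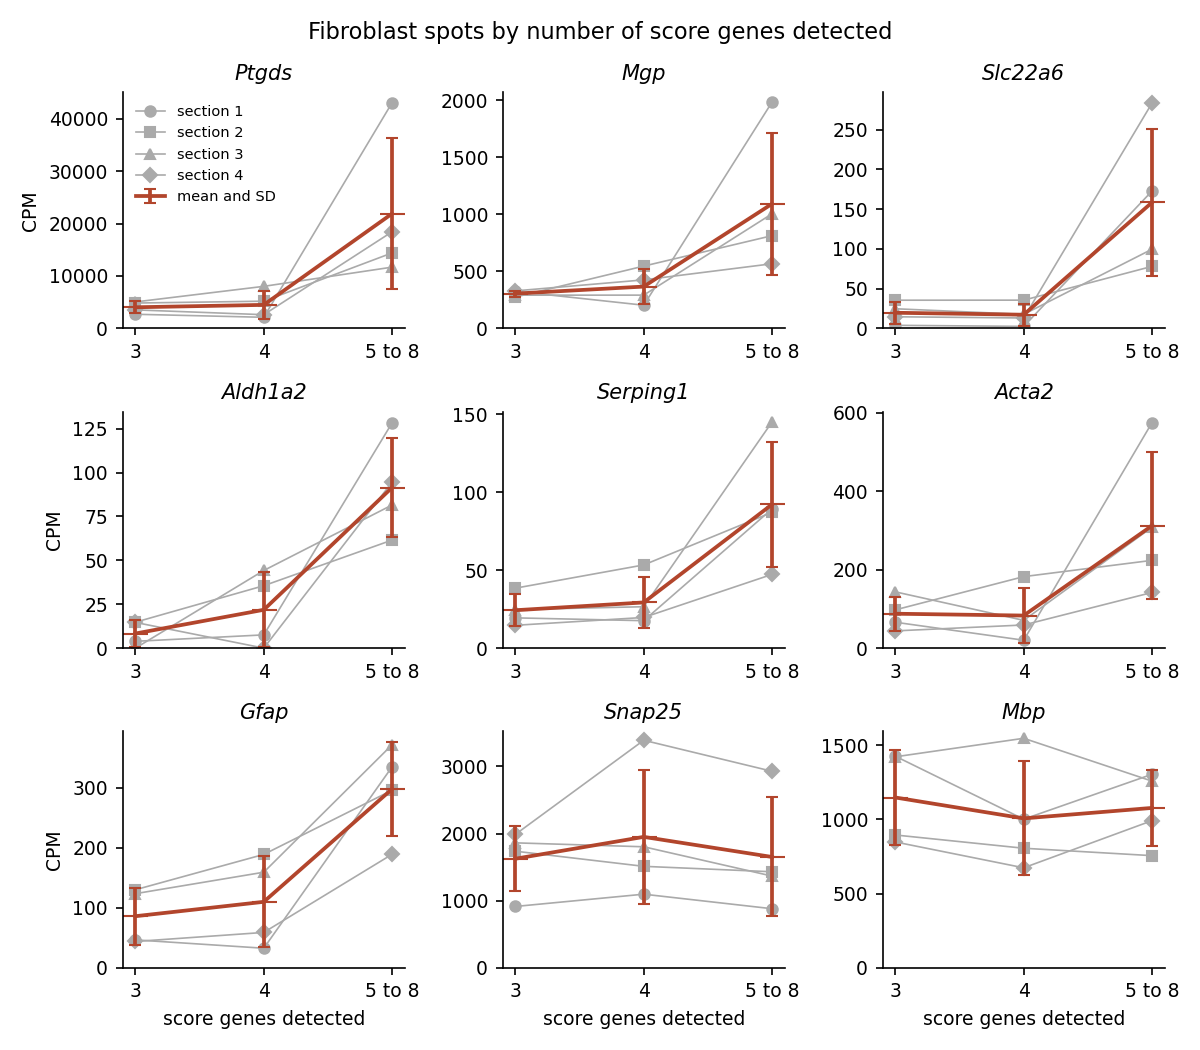
CPM of 9 genes in fibroblast spots with 3, 4 or 5 to 8 of the score genes detected; grey lines are the 4 sections, red is their mean with SD. Ptgds, Slc22a6 and Aldh1a2 are higher at 5 to 8 than at 3 in all 4 sections, and Snap25 and Mbp are lower in sections 1 to 3 and higher in section 4, where 2 spots stand at 5 to 8.

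The score genes were also looked at in spots that they did not choose. With spots picked by Col1a1, Col3a1, Lum and Slc6a13 alone (24, 66, 22 and 8 spots), the log2 ratio to other spots ran over the sections from 3.43 to 4.56 for Col1a2, 3.08 to 4.93 for Dcn, 3.02 to 4.32 for Igf2 and 3.81 to 4.54 for Ogn. With spots picked by these last 4 genes (67, 98, 66 and 55 spots), it ran from 2.19 to 3.99 for Col1a1, 3.73 to 5.19 for Col3a1, 3.49 to 4.72 for Lum and 2.89 to 4.38 for Slc6a13. Each of the 8 genes was higher in spots chosen by the other 4 in all sections. The 8 genes were picked together as fibroblast genes, with earlier results of these data known. The ratios therefore describe how these genes occur together and are no independent check of the rule.

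Finally, fibroblast spots were set against endothelial-marker spots, leaving out spots that met both rules. Where either kind of spot lies in the tissue was not examined. There were 39, 71, 33 and 18 spots of the first kind and 52, 90, 110 and 70 of the second. Of 9261 genes tested outside the 16 genes of both rules, 288 were higher in fibroblast spots (3.11%) and 111 lower (1.2%) by the same edgeR test, 4.31% in either direction. Groups did not overlap for 8.29% of genes, and 6.73% were above in all 4 sections.

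Of 20 pia and arachnoid genes listed, 9 passed the filter on low counts and were tested. Of these, 8 were higher and none lower (median 2.72, beside 0.00 for all genes). Genes sparse in endothelial-marker spots, Slc13a4 among them, could pass this filter through the fibroblast spots alone, so the count is a description only. Ptgds was at 9458, 8577, 8070.3 and 3652 CPM against 1169, 1139.6, 1082 and 713 (log2 2.91 ± 0.14, adjusted p = 2.23e-16). Slc13a4 was at 133, 62.1, 30.8 and 89 CPM against 4.88, 2.23, 4.61 and 1.86 (log2 4.58 ± 0.34, adjusted p = 1.64e-11), and Slc22a6 (3.90 ± 0.41) and Fmod (3.66 ± 0.34) were also among the 5 largest rises. The other 2 were Ecrg4 (4.65 ± 0.24) and Ttr (4.34 ± 0.34). In these fibroblast spots Ecrg4 was at 1287, 20.4, 17.1 and 432 CPM by section, and Ttr at 166261, 22.4, 85.6 and 56662. Both were highest in sections 1 and 4, the sections with many choroid plexus-marker spots. The cause of these 2 rises was not tested. Slc13a4 too was higher in the fibroblast spots of sections 1 and 4 than in those of sections 2 and 3.

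Vascular and glial genes gave mixed results. The 161 fibroblast spots used here are part of the 230 set against other spots, and the 69 left out met the endothelial rule. Acta2 was at 347, 342, 343 and 66.9 CPM in the spots left out, above those kept in every section. A lower value here can thus come from either side of the comparison. Values of both comparisons are given side by side without a test of the difference. None of 5 endothelial genes tested outside the rule passed (median -0.29), and Vwf was at 0.42 ± 0.31 (adjusted p = 0.61) and Col4a1 at 0.54 ± 0.32 (adjusted p = 0.474). Acta2 was still higher, at 70.1, 104, 85.6 and 55.1 CPM against 8.54, 38.6, 16.6 and 7.46 (log2 2.21 ± 0.25, adjusted p = 1.86e-07), and 3 of 6 mural genes passed. Mgp passed as well (1.89 ± 0.16, adjusted p = 2.06e-10), as did 5 of 12 astrocyte genes, Gfap among them (1.88 ± 0.22). Pdgfra did not (0.63 ± 0.22, adjusted p = 0.12).

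The 5 largest falls were Gjc3, of oligodendrocytes (log2 -1.298), and the genes Syndig1l (-1.21), Lrrc10b (-1.17), Penk (-1.16) and Lingo3 (-1.14). Gjc3 lost its call by DESeq2 (adjusted p = 0.544), without choroid plexus-marker spots (0.164) and without section 1, 2 or 4 (0.275, 0.215 and 0.114). Lingo3 lost it by DESeq2 (adjusted p = 0.137), at a score minimum of 5 (0.0614) and without section 1 or 2 (0.056 and 0.0667), and Penk lost it at a score minimum of 5 (0.0617). Penk, the enkephalin precursor abundant in striatal neurons, was at 413, 597, 596 and 178 CPM against 1212, 1105, 970.3 and 898, and was lower against all other spots too (log2 -1.14 ± 0.14, adjusted p = 7.83e-07), a call lost in the robust quasi-likelihood fit (adjusted p = 0.103). Mature oligodendrocyte genes were lower for 4 of 10 (median -0.54).

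**Figure D5:**
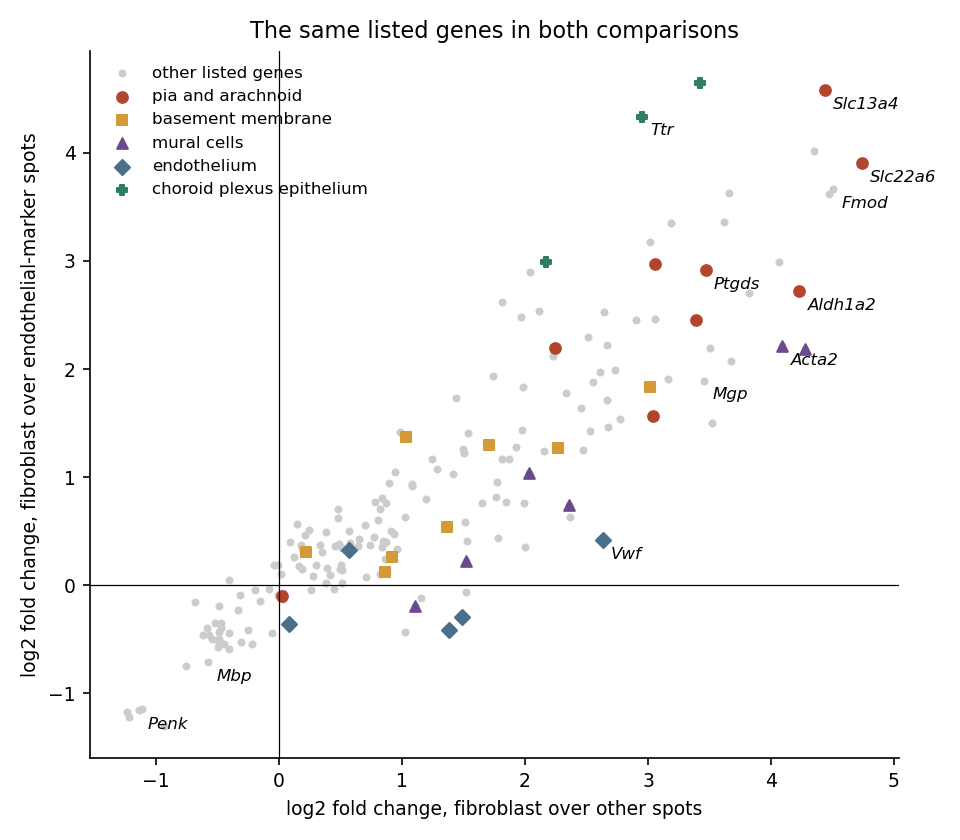
Log2 fold change of the listed genes in fibroblast over other spots (horizontal) and over endothelial-marker spots (vertical), both from the same sections. The vertical axis leaves out the fibroblast spots that met the endothelial rule. Pia and arachnoid genes lie high on both axes (Slc22a6 at 4.74 and 3.90), and endothelial genes lie near 0 on the vertical axis (Vwf at 2.63 and 0.42).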

How the data were processed

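UMI counts per gene and spot were deposited as filtered matrices, which the authors made with Space Ranger 1.3.1 on mm10, per the submitters' processing notes. All 4 sections were mapped to one group by their labels. Spots under 500 UMIs (17, 1, 26 and 4 spots) were left out. Spot positions were not used here. Spot barcodes come from a common array design and 427 to 1989 of them were shared between sections, 0 to 2 among fibroblast spots. Section shares of fibroblast spots were 3.58%, 4.41%, 2.09% and 1.61%. Their exact Clopper-Pearson 95% intervals were 2.71 to 4.63, 3.62 to 5.32, 1.55 to 2.76 and 1.02 to 2.40, and intervals and floors cover counting error only.

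Counts were summed per section and group. The sums were fitted with edgeR 4.0.16 in R 4.3.3 (limma 3.58.1), with TMM normalisation, filterByExpr, section as a block, a quasi-likelihood test and Benjamini-Hochberg adjustment over all genes tested, a call being an adjusted p under 0.05. The score genes were left out of calls. DESeq2 1.42.0 was an alternative. Both sums of a pair came from the same section, and their deviations correlated in every section (0.407, 0.305, 0.204 and 0.234, and 0.265, 0.224, 0.109 and 0.203 against endothelial-marker spots). Section values are CPM of the summed counts. Other alternatives changed the score minimum, the number of markers, sets of 4 of the score genes, depth matching, scaling, the filter, single sections, and the spots with choroid plexus or endothelial markers. Levels by number of score genes detected were also computed over the sections with at least 5 spots at 5 to 8 genes, a choice made after seeing the data.

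Named genes were the 10 largest rises and 6 largest falls among called genes with at least 100 UMIs that moved one way in every section, the 5 largest in each direction against endothelial-marker spots, the called member of each list with the largest change, and fixed checks such as Nf1 and Reln. Members, lists and rules were chosen with earlier results of these data known. On simulated counts, 115 of 198 genes changed by 1 on the log2 scale were called against other spots, and 124 of 193 against endothelial-marker spots. In each case 5 unchanged genes were called, among 13980 and 9018 genes tested with the changed ones included. The simulation took its dispersions from the fit and changed few genes, all by the same amount. It therefore does not cover data with as many and as large rises as these. Python 3.11.15, numpy 2.4.6, scipy 1.17.1, pandas 2.3.3 and matplotlib 3.10.9 were used. The result for 1 withheld gene is not reported here.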

Additional observations from a re-analysis of the deposited data

Results flagged for a closer look

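For named genes, the section whose log2 ratio stood far from the other 3 was looked for, and 6 of 112 gene and comparison pairs had one, where chance gives about 1 in 20. Against other spots, Lamc3 had a log2 ratio of 0.32 in section 4 and 3.72 to 4.29 elsewhere, with no UMI in section 4, so that the 0.5 UMIs added to each sum set this ratio. Penk was at -2.28 in section 4 and at -0.97 to -0.92 elsewhere. Itm2a was at 0.0631 in 1 section and at 1.099 to 1.28 in the others. Pmp22 was at 0.92 in 1 section and at 0.52 to 0.57 in the others. Against endothelial-marker spots, Fcrls was at -1.099 in 1 section and at 0.85 to 1.25 in the others, and Opalin was at -0.0526 in 1 section and at -1.099 to -0.96 in the others.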

How the results depend on the processing

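Against other spots, 1451 genes were higher and 900 lower. Higher calls were 870 with depth-matched other spots and 960 without endothelial-marker spots. Leaving out endothelial-marker spots, and a robust quasi-likelihood fit, were added once the data had been seen. Depth matching kept 165, 312, 144 and 69 other spots, 3 per fibroblast spot. Their sums were 935477 to 4366802 UMIs, against 18950406 to 35546697 for all other spots. Fewer calls thus came with fewer counts, and the part of spot depth was not tested. Lower calls were 458 with depth matching, 526 without endothelial-marker spots, 566 with at least 5 of 8 markers and 459 by DESeq2, and leaving out 1 section gave 970 to 1454 higher and 453 to 833 lower. Lower calls were 489 without section 2 and 453 without section 3. Without the replicate block of sections, 1210 were higher and 420 lower.

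Against endothelial-marker spots (288 higher, 111 lower), counts were 131 and 43 without choroid plexus-marker spots, 146 and 45 at a score minimum of 5, 106 and 20 by DESeq2, 481 and 209 without the filter, 154 and 19 without the replicate block, and 135 to 342 and 34 to 97 without 1 section. The lowest were without section 1, with 192 and 55 without section 2 and 221 and 45 without section 4. Of the calls, 72.2% were higher, and 55.9% with total-UMI scaling, which moved the median of all genes to -0.11, or 84.1% by DESeq2.

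The mean share of fibroblast spots, 2.92%, was 0.892% at 5 of 8 markers and 1.47% with the score genes Col1a1, Col3a1, Lum and Slc6a13 alone (set A). The log2 difference in UMIs per spot, -0.09, was -0.33 at a score minimum of 5, -0.22 at 5 of 8 markers and -0.32 with the other 4 alone (set B).

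Reversals touched genes near 0 or uncalled. Against other spots, Nf1 was at 0.34 with set B, 0.035 without choroid plexus-marker spots and -0.22 to 0.059 without 1 section. Reln was at -0.050 at a score minimum of 2, -0.059 with set B, -0.021 with total-UMI scaling, -0.018 by DESeq2, -0.025 without the filter and -0.37 to 0.28 without 1 section. Against endothelial-marker spots, Vwf was at -0.049 and Reln at 0.18 at a score minimum of 5, Pmp22 at -0.033 with total-UMI scaling, and Reln at 0.060 without choroid plexus-marker spots and -0.51 to 0.24 without 1 section. The cause was not tested for any of these. Sparse genes, such as Nf1 with 16 UMIs, are limited by depth.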
